A study of Mus musculus with 7 samples.

Results

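Potassium channel subunits were followed in the VMHvl, the ventrolateral division of the ventromedial nucleus of the hypothalamus, in ovariectomized female mice. The subunits were taken as every gene whose deposited symbol is Kcn, then letters, then a number, which gave 92 of the 48321 genes counted in each library, in 20 subfamilies named by the letters from Kcna to Kcnv. A further 7 Kcn symbols of another form were not among them. This rule on symbols used no measured value, but the subunits were chosen with earlier results of these data known.

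Estradiol benzoate (EB), an ester of estradiol, was given under the skin at 1 µg to 4 mice, and vehicle alone to 3 mice, with tissue taken 4 h later from all 7. Every mouse in both groups was an ovariectomized female on a mixed background with 129/Sv ancestry, from stock that began as a line with a floxed Esr1 gene. Each library held the hand-dissected VMHvl of 1 mouse, made from 15 ng of RNA with the Trio kit. EB against vehicle asks which transcripts differ after a short exposure to estrogen in animals without ovaries. A hand dissection takes in neurons, glia, vessels and some neighbouring tissue, and in such bulk samples fewer cells of a type and less RNA per cell cannot be told apart.

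Potassium channels let potassium leave or enter cells and thereby set the resting potential, end action potentials and space out firing. Most pores are built from several subunits, and auxiliary subunits change where the pore sits and how it opens. In hypothalamic neurons, inward rectifiers coupled to G proteins, channels gated by ATP, the M current and calcium-activated channels are known as points where hormones and transmitters act on firing.

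Library totals were 22311424 to 33302293 counts in EB mice and 21037303 to 30909554 counts in vehicle mice. Of 31222 genes with any count, 18387 passed the filter on low counts and were tested with edgeR's quasi-likelihood test, with p-values adjusted over all of them by the Benjamini-Hochberg method. Pgr, the progesterone receptor gene and a known estrogen target, was at 213, 190, 230 and 198 CPM (reads in every 1000000 of the TMM-scaled library total) in EB mice and 80.3, 89.6 and 76.6 CPM in vehicle mice, and was called higher in EB mice with a log2 change of 1.34. Neuronal markers were abundant, with 5 of them summing to 4000 to 5040 CPM in EB mice and 4350 to 4710 CPM in vehicle mice. Esr1, which marks VMHvl neurons, averaged 192 ± 30.2 CPM in EB mice and 223 ± 81.6 CPM in vehicle mice (SD, n = 4 and 3). Nr5a1, which marks other parts of the same nucleus, was low, at 2.52 ± 1.11 CPM in EB mice and 2.03 ± 1.02 CPM in vehicle mice (SD, n = 4 and 3). Fezf1, listed with them as a marker of the nucleus, averaged 128 ± 18.2 CPM in EB mice and 140 ± 9.53 CPM in vehicle mice. How much of the tissue came from other parts of the nucleus was not tested.

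Sequence upstream of the start site is shown for 3 subunit genes from the comparison below, picked after their values were seen. Kcng3 had the smallest p-value, Kcnh1 had an unadjusted p under 0.05, higher values in EB mice and a half-site match, and Kcna3 was among those with lower values in EB mice. Each is the 250 bases before the start of transcription, 5′ to 3′ on the gene's own strand, from RefSeq for GRCm38.p6, at chr17:83631896-83632145 (minus strand), chr1:192190527-192190776 (plus strand) and chr3:107035912-107036161 (plus strand). Capitals mark the estrogen receptor half-site AGGTCA and the GC box GGGCGG, each searched on both strands, so that TGACCT and CCGCCC are the same motifs read from the other strand.
Kcng3: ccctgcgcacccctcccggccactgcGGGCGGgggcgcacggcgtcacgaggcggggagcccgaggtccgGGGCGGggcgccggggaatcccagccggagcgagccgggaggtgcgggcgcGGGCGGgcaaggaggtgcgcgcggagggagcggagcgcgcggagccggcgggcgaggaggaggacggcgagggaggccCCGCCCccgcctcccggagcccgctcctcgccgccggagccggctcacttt
Kcnh1: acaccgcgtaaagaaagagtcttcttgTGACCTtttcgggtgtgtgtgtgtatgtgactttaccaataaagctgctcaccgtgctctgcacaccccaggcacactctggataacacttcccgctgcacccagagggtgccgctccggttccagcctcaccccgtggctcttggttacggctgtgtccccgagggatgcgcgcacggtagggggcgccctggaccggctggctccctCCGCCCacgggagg
Kcna3: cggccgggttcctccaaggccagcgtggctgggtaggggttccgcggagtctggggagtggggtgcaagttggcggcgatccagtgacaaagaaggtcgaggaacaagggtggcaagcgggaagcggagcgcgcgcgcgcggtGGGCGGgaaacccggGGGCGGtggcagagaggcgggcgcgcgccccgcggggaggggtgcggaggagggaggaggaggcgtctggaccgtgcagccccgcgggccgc
The Kcng3 sequence held 4 GC boxes and no half-site, Kcna3 held 2 GC boxes and no half-site, and Kcnh1 held 1 GC box and 1 half-site whose first base lies 223 bases before the start. RefSeq gave 92 promoters of 300 bases for 67 of the subunit genes, reaching 50 bases past the start. The whole estrogen response element, spelled GGTCANNNTGACC, was in 0 of these 92 promoters and in 23 of all 32851 promoters (0.07%). At least 1 half-site was in 6 subunit promoters (6.52%), against 5340 of all promoters (16.3%), and at least 1 GC box was in 44 (47.8%), against 11714 (35.7%). Genes with a half-site match were Kcna10, Kcnf1, Kcnh1, Kcnip4, Kcnj16 and Kcnk10. A match or its lack describes only the letters in this window.

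The repertoire of expressed subunits was broad and led by a few genes. Levels between genes were compared per length, as RPKM, the CPM of a gene divided by its exon length in kilobases. The level of a subunit was taken as the mean of its EB and vehicle means. At this scale 18 subunits had a level of 10 or more, 40 lay from 1 to 10, and 34 lay under 1. Kcnj10, the inward rectifier of astrocytes that carries potassium away from active neurons, had the highest level, at 91.4 ± 10.7 RPKM in EB mice and 92.8 ± 6.0 in vehicle mice (SD, n = 4 and 3). The next subunits on the same scale were Kcnq3, a pore subunit of the M current, at 42.0 ± 3.56 in EB mice and 42.7 ± 2.57 in vehicle mice, and Kcnip4, a calcium-binding partner of Kv4 channels, at 40.8 ± 6.68 in EB mice and 43.5 ± 2.35 in vehicle mice (SD, n = 4 and 3 each). Those 2 did not differ beyond their spread.

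Next in the order of level per length came Kcna2, an axonal delayed rectifier, at 28.4 ± 2.69 in EB mice and 33 ± 0.913 in vehicle mice, and Kcnq5, another M-current subunit, at 27.2 ± 3.43 and 29.7 ± 7.79 in the same groups (SD, n = 4 and 3). The 5 highest subunits made up 36.9 to 39.8% of the summed level per length in EB mice and 38.0 to 39.8% in vehicle mice. At the other end, Kcna7, a Kv1 pore of muscle, and Kcne1, the cardiac partner of KCNQ1, had no count in any library. A count of 0 allows up to 0.0923 to 0.132 CPM at these depths (3 counts in a library, counting error only). With 13 others (Kcna10, Kcne2, Kcng4, Kcnj1, Kcnj15, Kcnk7, Kcnk15, Kcnk16, Kcnk18, Kcnmb3, Kcnn4, Kcnq1 and Kcnv2) they made up the 15 subunits with too few counts to test.

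**Figure D1:**
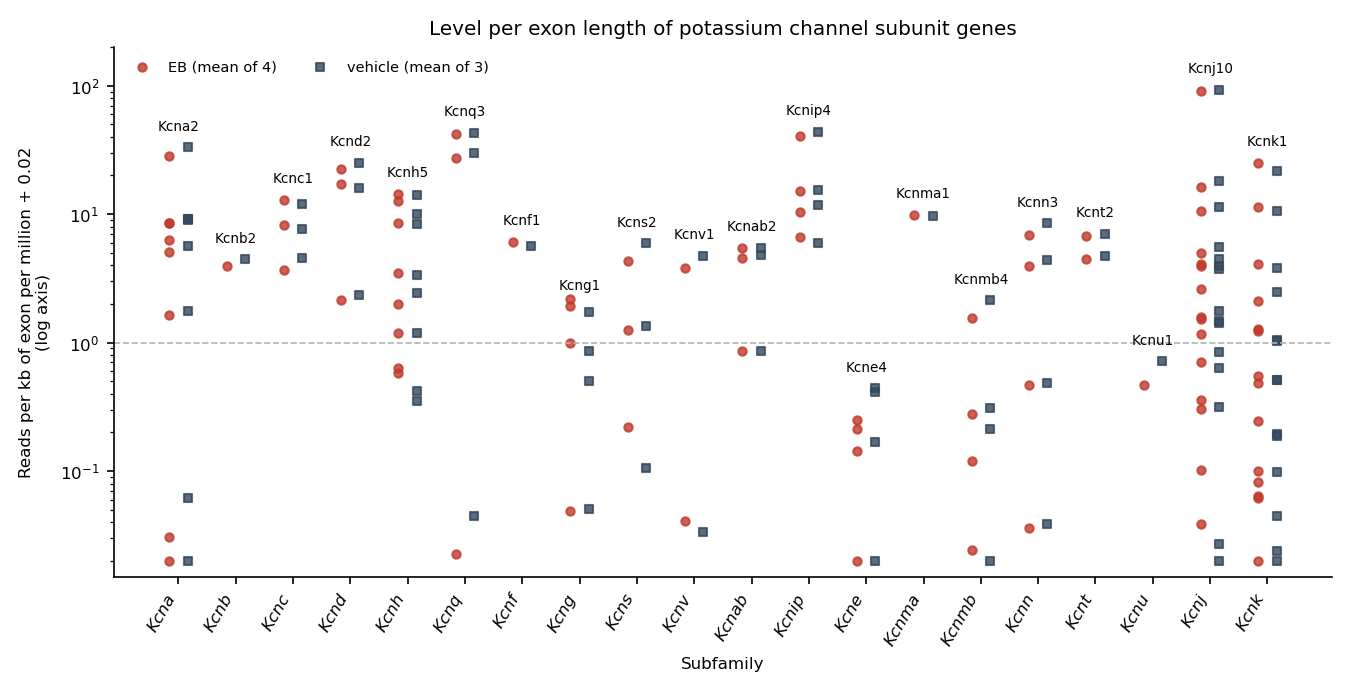
Mean level of 88 subunit genes in RPKM (log axis, with 0.02 added), by subfamily. Red circles are EB mice (mean of 4) and dark squares vehicle mice (mean of 3). The named gene has the highest mean of the EB and vehicle means among those drawn in its subfamily. Kcnj10 lies highest in both groups, and several subfamilies hold genes on both sides of the dashed line at 1.

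By class, voltage-gated pore subunits (Kcna, Kcnb, Kcnc, Kcnd, Kcnh and Kcnq, 30 genes) held 44.3 to 46.2% of the summed level per length in EB mice and 44.1 to 48.6% in vehicle mice. Inward rectifiers (Kcnj, 15 genes) held 20.6 to 25.5% in EB mice and 21.8 to 25.1% in vehicle mice, of which Kcnj10 alone gave 13.2 to 17.2% in EB mice and 13.9 to 16.2% in vehicle mice. Auxiliary subunits (15 genes) held 13.3 to 16.5% in EB mice and 14.3 to 15.1% in vehicle mice. The leak channels with paired pore domains (Kcnk, 14 genes) held 7.26 to 8.34% in EB mice and 6.21 to 7.14% in vehicle mice, so that the groups did not overlap in this class, a difference that was read off after the shares were computed and was not tested. The silent subunits (Kcnf, Kcng, Kcns and Kcnv, 10 genes) held 3.06 to 3.68% in EB mice and 2.99 to 3.60% in vehicle mice, and the calcium- or sodium-activated pores (Kcnma, Kcnn, Kcnt and Kcnu, 8 genes) held 5.20 to 5.73% in EB mice and 5.59 to 5.78% in vehicle mice.

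No subunit gene passed the adjusted threshold between EB and vehicle mice. EdgeR's quasi-likelihood test called 0 of the 77 tested subunits at an adjusted p under 0.05, against 175 of 18387 tested genes (0.952%, with 0.745% higher and 0.207% lower in EB mice). At an adjusted p under 0.1 the count was again 0, against 1.27% of all tested genes. The smallest adjusted p among subunits was 0.110, that of Kcng3. DESeq2 called 2 of them, Kcng3 with an adjusted p of 0.0061 and Kcns2 with an adjusted p of 0.0407, against 2.37% of the genes to which it gave an adjusted p, and limma-voom called 0 against 0.848%.

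At an unadjusted p under 0.05, 11 of 77 subunits stood out (14.3%), against 9.04% of all tested genes. Of these 4 were higher in EB mice (5.19%, against 4.87% of all tested genes) and 7 were lower (9.09%, against 4.18%). The values of EB and vehicle mice did not overlap in 11 subunits (14.3%), against 9.10% of all tested genes. EB mice were higher in 3 of these (Kcng2, Kcng3 and Kcnip1), against 5.11% of all tested genes, and lower in 8, against 3.99%. A log2 change of 1 or more in size was found in 5 subunits (6.49%), against 4.5% of all tested genes. Of the 77 log2 changes, 47 were negative (61.0%, against 51.6% of all tested genes), and with library totals as the only scaling 40 were. The median log2 change was -0.07 for the subunits and -0.008 for all tested genes, and the median size without regard to sign was 0.15 for both.

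Log2 changes were small in the abundant subunits. Of the 58 subunits with a level of 1 RPKM or more, all of which were tested, 46 had a log2 change within 0.25 of 0, with a median SE of 0.12. Their median coefficient of variation between mice was 11.6% in EB mice and 11.8% in vehicle mice. All 18 with a level of 10 or more lay within 0.33 of 0. Among the 19 tested subunits under a level of 1, the median SE was 0.45 and the coefficient of variation 35.9% in EB mice and 38.0% in vehicle mice, and 11 of them had a log2 change of 0.5 or more in size. All 92 together summed to 4150 to 4410 CPM in EB mice and 4280 to 4540 CPM in vehicle mice.

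**Figure D2:**
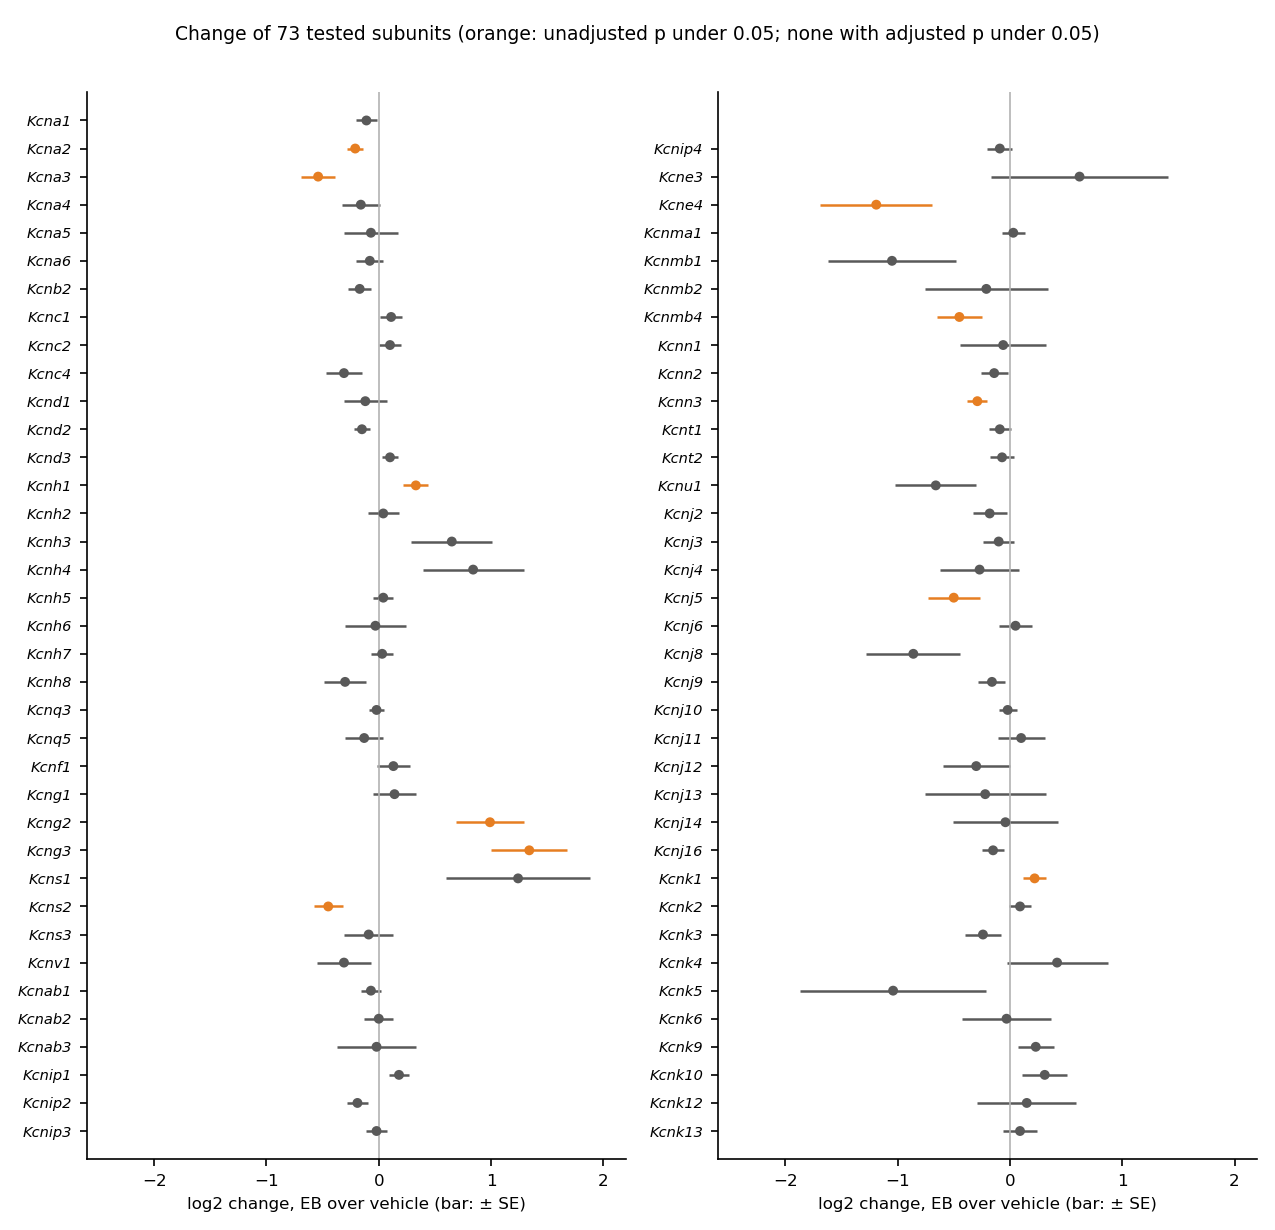
Log2 change of 73 tested subunits, EB over vehicle, with bars of 1 SE, in order of subfamily; orange marks the 11 with an unadjusted p under 0.05. None has an adjusted p under 0.05, and the wide bars belong to subunits with low levels.

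Among the voltage-gated pores, the Kcna genes encode Kv1 channels of axons and terminals, which limit repetitive firing. All 6 tested members had negative log2 changes, also under library totals alone, with a median of -0.14. The sign turned for Kcna5 without vehicle 3 (0.19) and with limma-voom (0.0049), and for Kcna6 without vehicle 2 (0.04). Of the 6, 2 had an unadjusted p under 0.05. Kcna3, a Kv1 pore found in neurons and in microglia, had 12, 13.3, 12.3 and 10.3 CPM in EB mice and 15.7, 21.3 and 15.2 CPM in vehicle mice. Every EB mouse lay under every vehicle mouse, with vehicle 2 highest. The log2 change was -0.54 ± 0.15 (SE), with a 95% interval of -0.87 to -0.21, an unadjusted p of 0.00363 and an adjusted p of 0.175 by edgeR. The 5 microglial markers summed to 82.5 to 97.8 CPM in EB mice and 99.9 to 103 CPM in vehicle mice. Of them, 3 had negative and 2 had positive log2 changes. P2ry12 had the largest in size, at -0.41 (unadjusted p = 0.0018 and adjusted p = 0.125 by edgeR). Csf1r and Tmem119 had log2 changes of 0.10 and 0.12. None of the markers was called, and their part in the Kcna3 values was not tested.

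Kcna2 had 368, 364, 309 and 312 CPM in EB mice and 405, 385 and 388 CPM in vehicle mice. Again the groups did not overlap, and EB 3 and EB 4 were lowest. Its log2 change was -0.21 ± 0.07 (SE), with an edgeR adjusted p of 0.298. Kcna3 and Kcna2 lie side by side on chromosome 3, with 63076 bases between them. On chromosome 6 the neighbours Kcna5, Kcna1 and Kcna6 had log2 changes of -0.07, -0.11 and -0.08, none with an unadjusted p under 0.05.

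The Kcnd genes encode Kv4 channels, which carry the A-type current of dendrites. Kcnd2 (Kv4.2) had 121, 116, 115 and 113 CPM in EB mice and 123, 127 and 135 CPM in vehicle mice, without overlap, and a log2 change of -0.15 ± 0.07 (SE, unadjusted p = 0.050 and adjusted p = 0.551 by edgeR). Kcnd3 (Kv4.3) had 171, 159, 170 and 153 CPM in EB mice and 145, 146 and 166 CPM in vehicle mice, with overlap and a log2 change of 0.10 ± 0.07 (SE). The sign of these 2 log2 changes differed, and the difference between them was not tested.

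Kcnc1 (Kv3.1), a pore of fast-spiking cells, had 129, 129, 116 and 116 CPM in EB mice and 96.3, 134 and 110 CPM in vehicle mice. The groups overlapped, with a 95% interval of the log2 change of -0.11 to 0.32.

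The Kcnh genes encode the EAG, ERG and ELK channels. Kcnh1 (EAG1, a slowly opening pore) had 111, 89.1, 82.6 and 86.5 CPM in EB mice and 64.6, 84.2 and 72.0 CPM in vehicle mice. EB 1 was highest, and EB 3 lay under vehicle 2. Its log2 change was 0.33 ± 0.11 (SE), with an unadjusted p of 0.0130 and an adjusted p of 0.326 by edgeR. Kcnh5 (EAG2), with the highest level per length of the subfamily, had a log2 change of 0.04 ± 0.09 (SE). Of the 2 low ELK genes, Kcnh4 averaged 2.22 ± 0.682 CPM in EB mice and 1.32 ± 0.950 CPM in vehicle mice (log2 change 0.84 ± 0.45 SE), and Kcnh3 averaged 3.51 ± 1.16 CPM in EB mice and 2.30 ± 1.07 CPM in vehicle mice (log2 change 0.65 ± 0.36 SE, SDs over n = 4 and 3). The groups overlapped in both. The log2 change of Kcnh4 was 1.53 without vehicle 3 and 0.41 without vehicle 2.

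The M current, which holds back repetitive firing near threshold and closes when many transmitter receptors are activated, has Kcnq3 and Kcnq5 among its pore subunits. For Kcnq3 the values were 554, 627, 608 and 680 CPM in EB mice and 584, 650 and 649 CPM in vehicle mice. The 95% interval of its log2 change was -0.18 to 0.13. Kcnq5 had 232, 181, 231 and 191 CPM in EB mice and 193, 298 and 195 CPM in vehicle mice, with vehicle 2 apart and an interval of -0.51 to 0.25. In both the groups overlapped.

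The silent subunits form no pore alone and join Kv2 subunits in mixed channels. Of the 8 tested, 3 had an unadjusted p under 0.05. All 3 tested Kcng genes had positive log2 changes, also under library totals alone, and the largest change of any subunit was that of Kcng3 (Kv6.3, on chromosome 17). It had 10.7, 4.96, 6.70 and 6.46 CPM in EB mice (328, 161, 159 and 157 reads) and 4.43, 2.44 and 1.63 CPM in vehicle mice (114, 77 and 37 reads). Every EB mouse lay above every vehicle mouse, with EB 1 highest and the nearest pair EB 2 and vehicle 1. The log2 change was 1.34 ± 0.34 (SE), a fold of 2.54, with a 95% interval of 0.62 to 2.07, an unadjusted p of 0.00149 and an adjusted p of 0.110 by edgeR. With each library left out in turn the log2 change was 1.07 to 1.79 and the edgeR adjusted p 0.0418 to 0.326, being lowest without vehicle 1 and 0.0869 or more in the 6 other cases.

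Kcng2 (Kv6.2, on chromosome 18) had 3.43, 2.25, 2.82 and 3.17 CPM in EB mice and 1.32, 1.62 and 1.41 CPM in vehicle mice, again without overlap. These rest on 67 to 105 reads per EB mouse and 32 to 51 reads per vehicle mouse. Its log2 change was 0.99 ± 0.30 (SE), with an unadjusted p of 0.00558 and an adjusted p of 0.216 by edgeR. Kcng1 (Kv6.1) had the highest level per length of the subfamily by the mean of the EB and vehicle means. In EB mice alone, however, its 1.89 RPKM lay under the 2.15 RPKM of Kcng3. Kcng1 averaged 8.52 ± 0.958 CPM in EB mice and 7.76 ± 1.96 CPM in vehicle mice (SD, n = 4 and 3), with overlap and a log2 change of 0.14 ± 0.19 (SE).

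Kcns2 (Kv9.2) lay on the other side. It had 27.6, 24.7, 23.6 and 20.9 CPM in EB mice and 32.9, 37.7 and 28.5 CPM in vehicle mice, without overlap. The log2 change was -0.45 ± 0.13 (SE), with a 95% interval of -0.72 to -0.18, an unadjusted p of 0.00319 and an adjusted p of 0.166 by edgeR. Kcns1 (Kv9.1), at 4 to 25 reads per EB mouse and 5 to 9 reads per vehicle mouse, had a log2 change of 1.24 ± 0.64 (SE) with overlap. Kcnf1 (Kv5.1) had a log2 change of 0.13 ± 0.15 (SE) and Kcnv1 (Kv8.1) one of -0.31 ± 0.24 (SE).

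**Figure D3:**
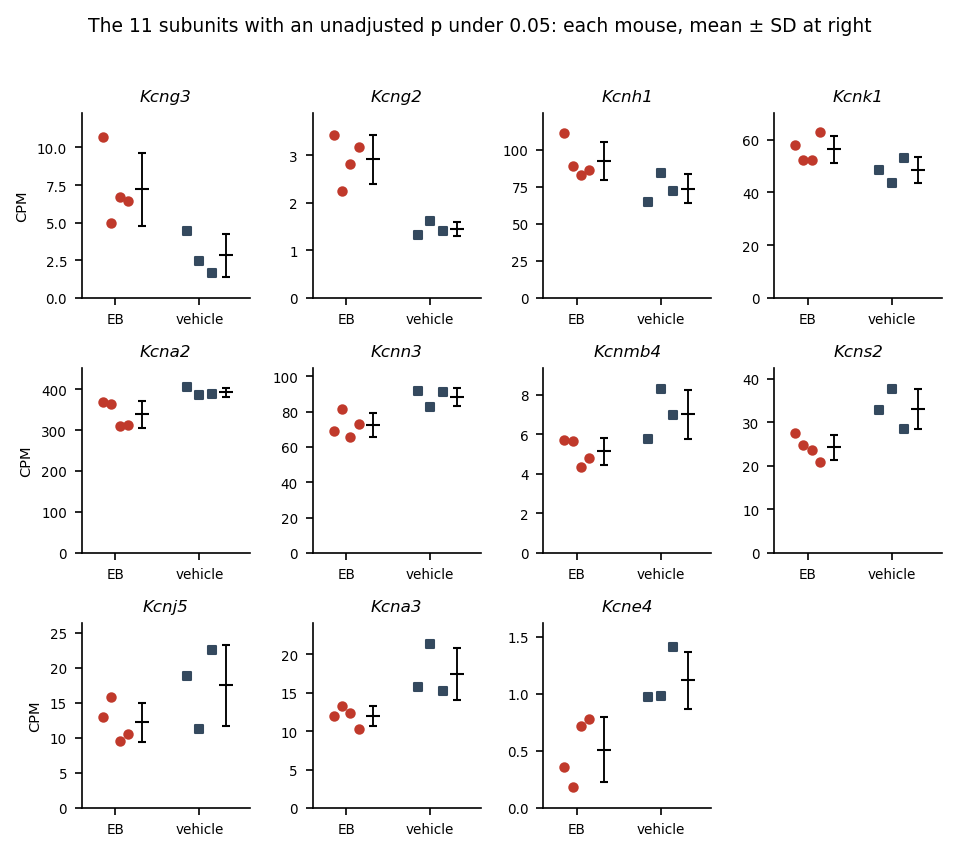
CPM in each mouse for the 11 subunits with an unadjusted p under 0.05, in order of log2 change from the most positive to the most negative; red circles are EB mice, dark squares vehicle mice, and black marks the mean ± SD of each group. EB and vehicle mice overlap in Kcnh1, Kcnk1 and Kcnj5 and not in the other 8.

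Auxiliary subunits bind the inside or the membrane part of a pore. The Kcnip genes encode calcium-binding partners of Kv4 channels. Kcnip1 had 43.1, 38.8, 41.2 and 42.1 CPM in EB mice and 37.4, 36.0 and 36.2 CPM in vehicle mice, and Kcnip2 had 34.0, 35.9, 35.8 and 37.4 CPM in EB mice and 37.6, 40.5 and 44.6 CPM in vehicle mice. In both the groups did not overlap, with Kcnip1 higher and Kcnip2 lower in EB mice, at log2 changes of 0.18 ± 0.09 and -0.19 ± 0.09 (SE) and edgeR adjusted p-values of 0.594 and 0.580. Kcnip4, the most abundant per length, had 154, 124, 179 and 134 CPM in EB mice and 148, 163 and 162 CPM in vehicle mice, with overlap and a log2 change of -0.09 ± 0.11 (SE). Of the Kcnab genes, whose products bind Kv1 pores from inside the cell, Kcnab2 had a log2 change of 0.00 ± 0.13 (SE). Kcnip1 and Kcnip2 were picked for description after their values were seen, since their groups did not overlap.

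Kcne4, a small membrane subunit that inhibits Kv1 and KCNQ1 channels, had 0.359, 0.185, 0.716 and 0.782 CPM in EB mice and 0.972, 0.982 and 1.41 CPM in vehicle mice. All EB mice lay under all vehicle mice, at 6 to 19 reads per EB mouse and 25 to 32 reads per vehicle mouse. The log2 change was -1.19 ± 0.50 (SE), with a 95% interval of -2.27 to -0.11, an unadjusted p of 0.0330 and an adjusted p of 0.476 by edgeR. Kcnmb4, the neuronal beta subunit of BK channels, had 5.72, 5.67, 4.34 and 4.82 CPM in EB mice and 5.79, 8.30 and 6.96 CPM in vehicle mice. The groups lay close but did not overlap, and the log2 change was -0.45 ± 0.20 (SE), with an edgeR adjusted p of 0.522. Its exons overlap the antisense genes Kcnmb4os1 and Kcnmb4os2, whose reads cannot be told apart from its own where counting did not use strand, which the sources used here do not give.

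Subunits known from vessels had low levels. Kcnj8 (Kir6.1), the pore of vascular ATP-gated channels, had 1.44, 0.493, 0.632 and 0.905 CPM in EB mice and 1.32, 1.9 and 1.5 CPM in vehicle mice. EB 1 lay among the vehicle mice and the 3 others under them, with a log2 change of -0.86 ± 0.42 (SE, adjusted p = 0.578 by edgeR). Kcnmb1 is the smooth muscle beta subunit of BK channels. It had 0.425, 0.246, 0.295 and 0.7 CPM in EB mice and 1.09, 1.08 and 0.264 CPM in vehicle mice. The groups overlapped, with a log2 change of -1.05 ± 0.57 (SE). The gene lies within the span of Kcnip1, on the opposite strand. Kcnip1 reads falling on its exons cannot be told apart from those of Kcnmb1 where counting did not use strand. Abcc9, the sulphonylurea receptor that pairs with Kcnj8 in vessels, averaged 11.2 ± 0.736 CPM in EB mice and 13.0 ± 2.80 CPM in vehicle mice (SD, n = 4 and 3), a log2 change of -0.22 ± 0.16 (SE).

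The 7 mural cell markers summed to 133, 121, 142 and 179 CPM in EB mice and 227, 111 and 163 CPM in vehicle mice, with vehicle 1 highest, vehicle 2 lowest and overlapping groups. All 7 log2 changes were negative (5 under library totals alone), with a median of -0.16 and none called. Of 6 endothelial markers, 5 had negative log2 changes, with a median of -0.37, and their sum was 71.0 to 90.4 CPM in EB mice and 88.9 to 123 CPM in vehicle mice. None was called, and 3 were lower in EB mice at an unadjusted p under 0.05. These were Flt1, Abcb1a and Slco1a4, with log2 changes of -0.48, -0.68 and -0.46 and adjusted p-values of 0.156, 0.175 and 0.313 by edgeR. For 6 fibroblast markers the sum was 73.2 to 273 CPM in EB mice and 81.5 to 527 CPM in vehicle mice. No marker of these 3 lists was at 0 in any library, and their part in the values of Kcnj8, Kcne4 and Kcnmb1 was not tested. Without vehicle 1 and EB 4, each the highest of its group in fibroblast markers, Kcne4 had a log2 change of -1.56, Kcnj8 one of -1.0 and Kcnmb1 one of -1.17.

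**Figure D4:**
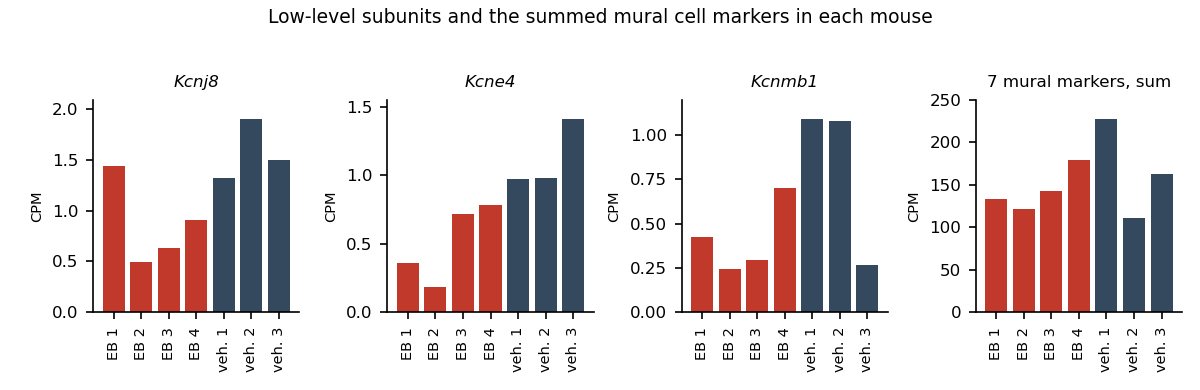
CPM in each mouse for Kcnj8, Kcne4 and Kcnmb1 and for the sum of 7 mural cell markers; red bars are EB mice 1 to 4 and dark bars vehicle mice 1 to 3. The marker sum is highest in vehicle 1 and lowest in vehicle 2. Kcnj8 is highest in vehicle 2, where Higd1b alone of the 7 markers is also highest.

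Calcium-activated channels link calcium entry to the pause after a spike. Kcnn3 (SK3) shapes this pause in hypothalamic and aminergic neurons. It had 69.2, 81.6, 65.7 and 72.9 CPM in EB mice and 91.6, 82.5 and 91.3 CPM in vehicle mice. The groups did not overlap, although EB 2 lay just under vehicle 2. The log2 change was -0.29 ± 0.09 (SE), with a 95% interval of -0.48 to -0.10, an unadjusted p of 0.00567 and an adjusted p of 0.216 by edgeR. Kcnn2 (SK2) had 25.5, 28.3, 32.5 and 31.7 CPM in EB mice and 37.6, 29.1 and 30.7 CPM in vehicle mice, with overlap and an interval of -0.40 to 0.12. Kcnn1 (SK1), at a lower RPKM, had 1.93, 2.09, 1.01 and 3.13 CPM in EB mice and 1.36, 2.69 and 2.29 CPM in vehicle mice. All 3 log2 changes of this subfamily were negative, also under library totals alone. That of Kcnn1 was -0.06 ± 0.38 (SE), and it turned to 0.18 without vehicle 2 and to 0.14 without EB 3.

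Kcnma1, the pore of the BK channel, which opens to calcium and voltage together, had 179, 178, 169 and 141 CPM in EB mice and 141, 160 and 188 CPM in vehicle mice. The groups overlapped fully, with a log2 change of 0.03 ± 0.10 (SE) and a 95% interval of -0.19 to 0.26. Kcnt2, a sodium-activated pore, had a log2 change of -0.07 ± 0.11 (SE). Kcnu1, known from sperm, averaged 1.66 ± 0.598 CPM in EB mice and 2.61 ± 0.952 CPM in vehicle mice (SD, n = 4 and 3), with overlap and a log2 change of -0.66 ± 0.36 (SE).

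The GIRK channels are inward rectifiers that G protein coupled receptors open, built from Kcnj3, Kcnj5, Kcnj6 and Kcnj9. Kcnj5 (GIRK4) had 13.0, 15.8, 9.52 and 10.5 CPM in EB mice and 18.8, 11.2 and 22.5 CPM in vehicle mice. Vehicle 2 lay among the EB mice, and the log2 change was -0.50 ± 0.23 (SE), with an unadjusted p of 0.0479 and an adjusted p of 0.546 by edgeR. Leaving out 1 library at a time gave log2 changes of -0.75 (without vehicle 2) to -0.28, all negative.

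For Kcnj3 (GIRK1), the common partner, values were 52.9, 69.1, 53.6 and 46.0 CPM in EB mice and 61.7, 48.0 and 68.7 CPM in vehicle mice. Kcnj6 (GIRK2) had 30.5, 33, 24.6 and 35.1 CPM in EB mice and 24.3, 29.4 and 35.9 CPM in vehicle mice. Kcnj9 (GIRK3) had 21.1, 24.5, 20.3 and 18.6 CPM in EB mice and 22.8, 23.3 and 25.1 CPM in vehicle mice. The groups overlapped in these 3, and the 95% intervals of the log2 changes were -0.41 to 0.21, -0.27 to 0.36 and -0.42 to 0.09. By mean level per kilobase of exon, the GIRK order was Kcnj3, Kcnj9, Kcnj6 and Kcnj5. In that order the means were 10.6, 4.93, 4.04 and 2.61 in EB mice and 11.4, 5.53, 3.91 and 3.74 in vehicle mice. The SDs of Kcnj9 and Kcnj6 reached each other in EB mice, and those of Kcnj6 and Kcnj5 in vehicle mice.

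Kcnj11 (Kir6.2), the pore of neuronal ATP-gated channels that respond to glucose, had 4.93, 6.68, 5.43 and 5.89 CPM in EB mice and 4.16, 5.99 and 5.90 CPM in vehicle mice. The groups overlapped, with an interval of -0.35 to 0.55. Its partner Abcc8 averaged 12.6 ± 0.798 CPM in EB mice and 14 ± 3.11 CPM in vehicle mice (SD, n = 4 and 3), a log2 change of -0.16 ± 0.16 (SE). Kcnj10 had 515, 494, 415 and 553 CPM in EB mice and 530, 466 and 509 CPM in vehicle mice, a log2 change of -0.02 ± 0.08 (SE), with a sum of 6 astrocyte markers of 4700 to 5940 CPM in EB mice and 5450 to 6090 CPM in vehicle mice. Its partner in glia, Kcnj16, and Kcnj2, a classical inward rectifier, lie next to each other on chromosome 11 and had log2 changes of -0.15 and -0.18. Of the 13 tested Kcnj genes, 11 had negative log2 changes, and 9 with library totals as the only scaling.

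**Figure D5:**
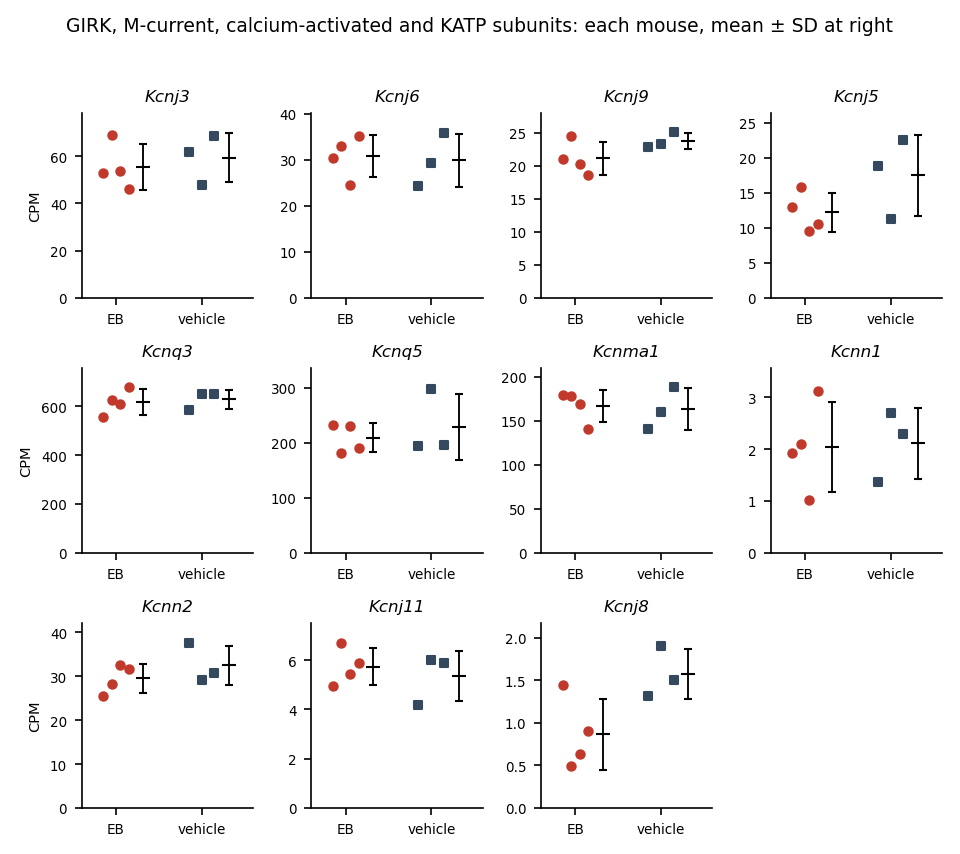
CPM in each mouse for the GIRK subunits (Kcnj3, Kcnj6, Kcnj9, Kcnj5), the M-current subunits (Kcnq3, Kcnq5), calcium-activated pores (Kcnma1, Kcnn1, Kcnn2) and the ATP-gated pores (Kcnj11, Kcnj8); red circles are EB mice, dark squares vehicle mice, and black marks the mean ± SD of each group. EB and vehicle mice overlap in all 11.

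The Kcnk genes encode leak channels that hold the resting potential. Of the 10 tested, 7 had positive log2 changes (8 under library totals alone), with a median of 0.12. Kcnk1 (TWIK1), the most abundant of them per length, had 58.0, 52.4, 52.2 and 62.7 CPM in EB mice and 48.5, 43.7 and 53.2 CPM in vehicle mice. Vehicle 3 lay just above EB 2 and EB 3, and the log2 change was 0.22 ± 0.10 (SE), with an unadjusted p of 0.0474 and an adjusted p of 0.546 by edgeR. The mechanosensitive Kcnk2 (TREK1) had a log2 change of 0.09 ± 0.10 (SE), and the acid-sensitive Kcnk3 (TASK1) and Kcnk9 (TASK3) had log2 changes of -0.24 ± 0.16 and 0.23 ± 0.16 (SE). Kcnk5 (TASK2) was at or under 0.7 CPM in EB mice and 0.881 CPM in vehicle mice and had a log2 change of -1.04 ± 0.83 (SE). This was -0.58 without EB 1, -1.94 without EB 4 and -2.0 with limma-voom.

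The subunits that follow had an unadjusted p above 0.05 and overlapping groups. Among voltage-gated pores, Kcna4 (Kv1.4, an inactivating axonal pore) had a log2 change of -0.16 ± 0.17, Kcnb2 (Kv2.2) one of -0.17 ± 0.10, Kcnd1 (Kv4.1) one of -0.12 ± 0.19 and Kcnc4 (Kv3.4) one of -0.31 ± 0.16 (SE). The ERG pores Kcnh2, Kcnh6 and Kcnh7 had log2 changes of 0.04 ± 0.14, -0.03 ± 0.27 and 0.03 ± 0.10, and Kcnh8 (ELK1) one of -0.30 ± 0.19 (SE). Kcnh7, whose exons overlap those of Gca on the opposite strand, was at 118 to 141 CPM in EB mice and 109 to 144 CPM in vehicle mice.

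Among auxiliary subunits, Kcnip3, a Kv4 partner also known as the calcium sensor DREAM, had a log2 change of -0.02 ± 0.09, and Kcnab1 and Kcnab3 had log2 changes of -0.07 ± 0.09 and -0.02 ± 0.35 (SE). Kcne3 and Kcnmb2, both under 1.5 CPM in every mouse, had log2 changes of 0.62 ± 0.79 and -0.21 ± 0.55 (SE). The silent subunit Kcns3 (Kv9.3) had one of -0.09 ± 0.22, and Kcnt1, the other sodium-activated pore, one of -0.09 ± 0.10 (SE). The strong inward rectifiers Kcnj4 and Kcnj12 had log2 changes of -0.27 ± 0.35 and -0.30 ± 0.30 (SE). Of the leak channels, Kcnk10 (TREK2) was at 10.6 to 11.3 CPM in EB mice and 5.71 to 11.0 CPM in vehicle mice, with a log2 change of 0.31 ± 0.20 (SE), and Kcnk4, Kcnk6 and Kcnk12 had log2 changes of 0.42 ± 0.45, -0.03 ± 0.40 and 0.15 ± 0.44 (SE).

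Low values in 2 subunits of the choroid plexus are given with their neighbours. Kcnj13 (Kir7.1) had 0.947, 1.54, 2.15 and 3.00 CPM in EB mice and 4.43, 0.792 and 1.37 CPM in vehicle mice, with overlapping groups and a log2 change of -0.22 ± 0.54 (SE). Without vehicle 1, its highest value, the log2 change was 0.82. Of its exons, 623 bases lie opposite the exons of Gigyf2. Kcne2, which was not tested, was at 1.52 CPM in vehicle 2 and at 0.0843 to 0.308 CPM in the 6 other mice. The 6 choroid plexus markers summed to 219 to 331 CPM in EB mice and 301 to 381 CPM in vehicle mice, highest in vehicle 2. Ttr was at 199 CPM in vehicle 2, the highest of the 7 mice, while Kl at 19.3 CPM and Clic6 at 20.7 CPM were lowest there. Folr1 and Aqp1, both at 0.0633 CPM in vehicle 2, were lowest there among vehicle mice, and Folr1 was at 0 in EB 3. The part of these markers in the values of Kcne2 and Kcnj13 was not tested.

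Of 30 listed partners of potassium channels outside the Kcn family, 29 were tested and 0 were called by edgeR, with 1 at an unadjusted p under 0.05 and a median log2 change of -0.04. DESeq2 and limma-voom also called 0 of them. Dpp6 and Dpp10, membrane partners of Kv4 pores, averaged 187 ± 12 and 233 ± 30.1 CPM in EB mice and 183 ± 10.9 and 220 ± 25.8 CPM in vehicle mice (SD, n = 4 and 3). The 1 at an unadjusted p under 0.05 was Akap5, an anchoring protein of the M-current channel, at 58.1, 54.1, 68.6 and 52.9 CPM in EB mice and 64.8, 87.1 and 75.9 CPM in vehicle mice, with EB 3 above vehicle 1. Its log2 change was -0.38 ± 0.11 (SE), with an unadjusted p of 0.00511 and an adjusted p of 0.213 by edgeR. Of 10 sodium pump and cation-chloride cotransporter genes, edgeR called 0, with 0 at an unadjusted p under 0.05, and 8 log2 changes were negative. Their sum was 3360 to 3720 CPM in EB mice and 3830 to 3900 CPM in vehicle mice, without overlap and not tested as a sum.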

How the data were processed

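RNA was sequenced from the VMHvl of 7 ovariectomized female mice, 4 given EB and 3 given vehicle. The authors deposited raw read counts of 48321 genes per library. HISAT2, HTSeq, DESeq2 and the build mm10 are named, without versions, per the submitters' processing notes. Not given in the sources used here are the annotation and the handling of strand and of reads with several matches, so reads of overlapping or antisense genes could be counted with a subunit gene.

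Low counts were removed by filterByExpr (minimum count 10). The quasi-likelihood F test of edgeR 4.0.16 was run under R 4.3.3 with TMM scaling and robust dispersion fitting. The Benjamini-Hochberg adjustment ran over all 18387 tested genes, with calls at an adjusted p under 0.05. The biological coefficient of variation was 22.3%. SE is the absolute log2 change over the square root of F, and 95% intervals use the moderated degrees of freedom. CPM is per TMM-scaled library. RPKM, computed here, divides CPM by the union of exons in GENCODE M21 on GRCm38, which is mm10, so these lengths are approximate. Tests were checked on simulated counts. Tables and figures used Python 3.11.15 and matplotlib 3.10.9.

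The subunits and gene lists were chosen with earlier results of these data known. Named with values were the subunits with an unadjusted p under 0.05, the 5 largest log2 changes each way, the highest level per length in each subfamily, a fixed set of GIRK, ATP-gated, M-current, calcium-activated and Kv subunits, and subunits with 1 library apart. Others were given for completeness. Replicate numbers only name the mice. Libraries of a group differed beyond sampling noise (chi-square per degree of freedom 17.02 to 166.1). Alternatives were DESeq2 1.42.0, limma-voom 3.58.1, other scalings and filters, an adjusted p under 0.1, and libraries left out. Promoters came from RefSeq for GRCm38.p6. A few subunits are not reported here by name.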

Additional observations from a re-analysis of the deposited data

Results flagged for a closer look

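In 3 of the subunits reported here, 1 of the EB mice lay far from the 3 others, by the gap to its nearest neighbour over the range of the group. Kcnc2 (Kv3.2, a pore of fast-spiking neurons) was at 48.1 CPM in EB 4 and at 61.1 to 61.9 CPM in the 3 other EB mice, against 51.5 to 58.7 CPM in vehicle mice. Kcnj14 (Kir2.4, an inward rectifier) was at 1.2 CPM in EB 2 and at 0.588 to 0.658 CPM in the 3 others. Kcnk13 (THIK1, a leak channel of microglia) was at 15.4 CPM in EB 1 and at 11.4 to 11.9 CPM in the 3 others, against 11.3 to 12.8 CPM in vehicle mice. Chance sets apart about 1 in 20 groups of 4 by this measure, and these 3 cases fell in 3 different mice.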

How the results depend on the processing

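The count of called subunits was 0 of 77 with edgeR and 2 with DESeq2 (Kcng3 and Kcns2). It was 1 of 77 with library totals as the only scaling (Kcng3) and 2 of 90 without the low-count filter (Kcng3 and Kcns2). When each library was left out in turn it was 0 to 1, the 1 being Kcng3 without vehicle 1 (edgeR adjusted p = 0.0418). Subunits at an unadjusted p under 0.05 numbered 7 of 77 with library totals only and 18 of 90 without the filter. With a library left out they numbered 10 to 14, of 75 to 78 tested. The share of all genes at that p is not given for these fits, so these counts are not read against it. All genes called numbered 351 with DESeq2 (231 higher and 120 lower) and 128 of 18387 with library totals only (111 higher and 17 lower). They numbered 375 of 31222 without the filter (240 higher and 135 lower). With a library left out they numbered 102 to 152, with 102 without vehicle 3 and 107 without EB 1. Of the channel partners and pumps, 1 was called without the filter, Akap5 (adjusted p = 0.0280). The cause of these moves was not tested.

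Kcng3 kept a positive log2 change in all alternatives, 1.07 to 1.79 with a library left out and 1.83 without vehicle 1 and EB 4, with adjusted p-values of 0.00037 (no filter) to 0.326. Of the 77 tested subunits, the log2 change turned sign in 7 with library totals only (Kcnab3 at 0.02, Kcnh6 at 0.02, Kcnip3 at 0.01, Kcnj10 at 0.02, Kcnj14 at 0.0037, Kcnk6 at 0.02 and Kcnq3 at 0.02). It turned in 6 with limma-voom (Kcna5 at 0.0049, Kcnab2 at -0.0049, Kcnab3 at 0.02, Kcne3 at -0.06, Kcnj13 at 0.05 and Kcnk6 at 0.08) and in 1 with DESeq2 (Kcnab3 at 0.0047). Without vehicle 1 and EB 4 it turned in 10 (Kcnab3 at 0.14, Kcnj11 at -0.06, Kcnj13 at 0.54, Kcnj14 at 0.32, Kcnj3 at 0.01, Kcnj6 at -0.14, Kcnk6 at 0.23, Kcnmb2 at 0.06, Kcns3 at 0.04 and Kcnt2 at 0.04).

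With each library left out in turn, 28 of the 77 turned sign at least once, 13 of them without vehicle 1. The range was widest for Kcnj13, at -0.67 to 0.82, then Kcnmb2 at -0.52 to 0.33 and Kcnk6 at -0.41 to 0.40. It was -0.28 to 0.19 for Kcna5, -0.17 to 0.04 for Kcna6, -0.10 to 0.10 for Kcnab2, -0.29 to 0.32 for Kcnab3, -0.0048 to 0.24 for Kcnc1, -0.33 to 0.10 for Kcnd1, -0.05 to 0.25 for Kcnf1, -0.07 to 0.11 for Kcnh2, -0.03 to 0.10 for Kcnh5, -0.27 to 0.17 for Kcnh6, -0.07 to 0.13 for Kcnh7, -0.11 to 0.07 for Kcnip3, -0.08 to 0.05 for Kcnj10, -0.05 to 0.20 for Kcnj11, -0.38 to 0.25 for Kcnj14, -0.23 to 0.01 for Kcnj3, -0.08 to 0.20 for Kcnj6, -0.07 to 0.42 for Kcnk12, -0.03 to 0.15 for Kcnk13, -0.01 to 0.21 for Kcnk2, -0.06 to 0.14 for Kcnma1, -0.31 to 0.18 for Kcnn1, -0.08 to 0.03 for Kcnq3, -0.24 to 0.11 for Kcnq5 and -0.11 to 0.01 for Kcnt2. No paired analysis was possible because every library has its own number in the labels, and the replicate numbers used here only name the mice.

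The 19 tested subunits under a level of 1 RPKM had a median SE of 0.45 on the log2 scale, against 0.12 for the 58 at a level of 1 or more. Their median coefficient of variation was 35.9% in EB mice and 38.0% in vehicle mice, against 11.6% and 11.8% at the higher levels, and the part of read depth in this was not tested.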
